A study of Mus musculus with 8 samples.

Results

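The CCR4-NOT complex is the main cytoplasmic deadenylase of animal cells, and 10 genes of it were examined here: Cnot1, Cnot2, Cnot3, Cnot4, Cnot6, Cnot6l, Cnot7, Cnot8, Cnot10 and Cnot11. They were taken by name from the rows of an expression table that held 17597 genes and 1097 transposable element subfamilies, and all 10 had a row. An eleventh subunit gene, Cnot9, stood in the table under its older name Rqcd1 and was described beside them.

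The libraries came from mouse embryonic stem (ES) cells of Cast x 129S background in which METTL3, the catalytic subunit of the N6-methyladenosine (m6A) writer, carried an FKBP12 F36V degron at its C terminus. This tag lets the small molecule dTAG-13 send the fusion protein for degradation. The cells of 2 clonal lines, C3 and H5, were left untreated or were treated with dTAG-13 for 26 h, with 2 libraries for each line and condition, hence 4 untreated and 4 treated libraries. All 8 shared the METTL3 tag and an endogenous Xist gene under a TetOn promoter. That promoter is placed on the 129S allele by the labels and on the Cast allele by the study's account of these lines. Neither the sample titles nor the study's methods for these libraries name doxycycline. Each clone is a single derived line, and both were grown on mitomycin-inactivated mouse fibroblast feeders. The labels give total RNA as the molecule, as do the study's methods, whereas the extraction text in the labels describes chromatin RNA.

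The value available for each gene was a mean count over the libraries of the table, taken here to be all 8, with untreated and treated cells together. A level below is that mean count divided by the kilobases of the gene's merged exons and scaled so that the 17373 genes with a known length sum to 1000000. The lengths are from GENCODE vM21, whereas the gene set in which the reads were counted is not known. Exons that add length but were not counted would lower the level of a gene, and this was not tested. With 1 pooled value per gene there is no spread between libraries and no n to attach to it, so no difference between genes could be set against replicate error and no test was made. The effect of METTL3 removal on these genes and the amounts of their proteins were not analysed here. A percentile is the share of the 17373 genes with a lower level.

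CCR4-NOT shortens the poly(A) tail of mRNAs, a step that lowers their translation and opens the way to decapping and decay. CNOT1 is a long scaffold on which the other subunits assemble as modules: a pair of nucleases, the NOT module of CNOT2 and CNOT3 at the C terminus, the CNOT10 and CNOT11 module at the N terminus, and CNOT9 in between. RNA-binding proteins bring the complex to chosen transcripts, and the m6A reader YTHDF2 does so by contacting CNOT1, which ties the complex to the decay of methylated mRNA. In ES cells, Cnot1, Cnot2 and Cnot3 are known as genes needed to hold the undifferentiated state.

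Each nuclease is encoded by a pair of paralogues, and a read can count for a gene only where its sequence tells the paralogues apart. The most alike stretches of the length of 1 read, 81 bases, are therefore shown from the coding sequences of GENCODE vM21 on GRCm38, which is the same assembly as mm10. They run 5′ to 3′ on the coding strand, and capitals mark the bases that differ between the paralogues.
Cnot7: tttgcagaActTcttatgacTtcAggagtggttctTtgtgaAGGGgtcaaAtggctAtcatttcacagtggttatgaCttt
Cnot8: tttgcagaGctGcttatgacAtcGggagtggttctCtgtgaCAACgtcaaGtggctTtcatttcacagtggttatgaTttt
Cnot6: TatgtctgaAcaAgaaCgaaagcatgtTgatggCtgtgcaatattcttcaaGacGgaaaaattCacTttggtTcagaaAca
Cnot6l: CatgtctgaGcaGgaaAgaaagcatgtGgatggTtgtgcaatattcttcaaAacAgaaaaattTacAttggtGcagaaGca

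The Cnot7 and Cnot8 stretches cover coding bases 406 to 486 in both genes and differ at 12 bases, of which 10 are the last base of a codon. Both stretches cross an exon junction after 68 bases. In Cnot7 they lie on the minus strand in exon 3, chr8:40500752-40500819, and exon 4, chr8:40499427-40499439. In Cnot8 they lie on the plus strand in exon 4, chr11:58113146-58113213, and exon 5, chr11:58113950-58113962. The Cnot6 and Cnot6l stretches cover coding bases 813 to 893 in both genes and also differ at 12 bases, 11 of them the last base of a codon. They cross a junction after 60 bases, from exon 8 to exon 9 in both genes, at chr11:49682039-49682098 and chr11:49681275-49681295 in Cnot6 and at chr5:96091584-96091643 and chr5:96086273-96086293 in Cnot6l, all on the minus strand.

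No 81-base stretch was shared within either pair. The longest run of bases found unchanged in both members of a pair was 20 bases for Cnot7 and Cnot8, and 20 bases for Cnot6 and Cnot6l. Over the whole coding sequence the identity was 69.7% for Cnot7 and Cnot8 and 71.7% for Cnot6 and Cnot6l. The encoded proteins, translated from these sequences, have 285 residues for Cnot7 and 292 for Cnot8, with 217 identical in the alignment (74.3%). For Cnot6 and Cnot6l they have 557 and 555 residues, with 427 identical (75.8%). Every error-free read that lies wholly in these coding sequences therefore carries at least 1 base that differs from the paralogue.

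All 10 genes lay above the median of the 17373 genes, which include genes with almost no reads. Their median level was 57.3, against 9.41 over all 17373 genes, and their median percentile was 79.7. There were 7 of the 10 at or above the 75th percentile and 3, Cnot1, Cnot2 and Cnot8, at or above the 90th. Cnot6 and Cnot7 passed the 75th only narrowly, both at 75.7. By the longest transcript Cnot6 was below it, at 72.8, and by coding length at 78.0. Together the 10 genes took 27693 of the 14573411 mean counts in genes, a share of 0.190%. Against genes whose mean count reached 10, Cnot3, Cnot4 and Cnot6l were below the median gene, at percentiles 46.5, 46.0 and 41.7, and the other 7 stayed above it. Levels within the complex spanned 16.8-fold from Cnot6l to Cnot1, and mean counts, which also grow with gene length, spanned 32.0-fold from Cnot3 to Cnot1.

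**Figure D1:**
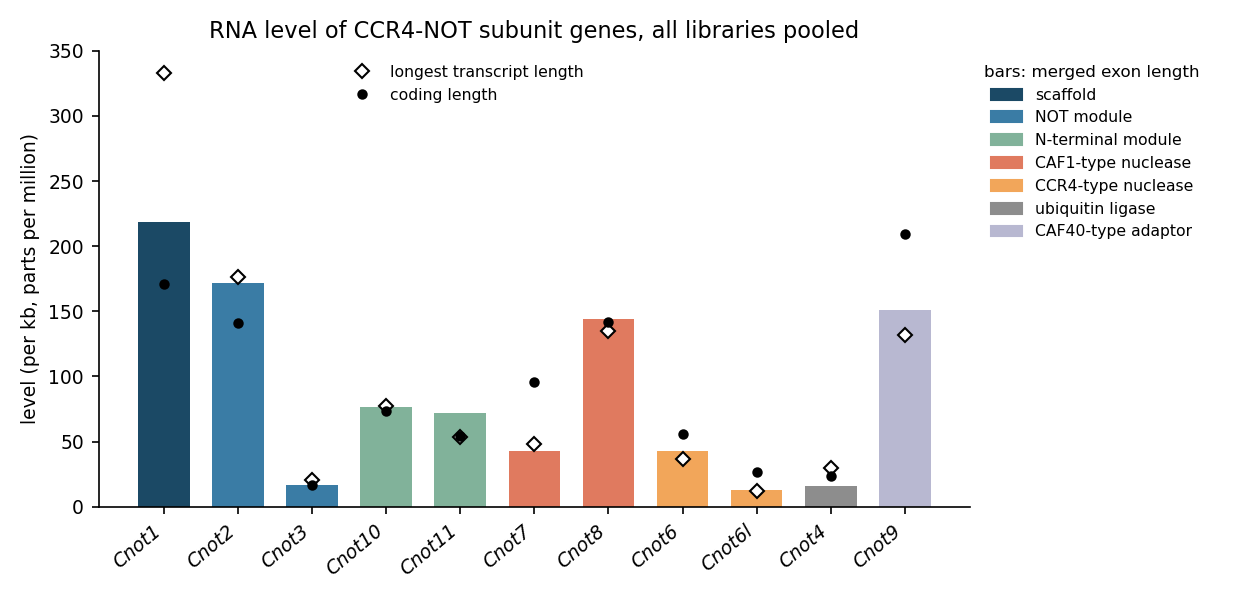
Level of each CCR4-NOT subunit gene, per kilobase and in parts of 1000000, from the mean count over all libraries, with no error bars because the table holds 1 pooled value per gene. Bars divide by merged exon length and are coloured by module, diamonds divide by the longest transcript and dots by the coding length; Cnot1, Cnot2, Cnot8 and Cnot9 stand above 100 and Cnot3, Cnot4 and Cnot6l stay under 30 on all 3 scales.

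Cnot1, the scaffold, had the highest mean count of the complex, 15899.9, which was 57.4% of the counts of the 10 genes. Its merged exons are also the longest, at 17169 bases over 17 annotated transcripts, and per kilobase it held 26.8% of the summed level of the complex. Its level was 218, at percentile 95.0. It was the highest of the 10 genes with any of the 3 lengths, at 333 by the longest transcript of 8390 bases and 171 by the 7128 coding bases. The gene is at chr8:95719451-95807464 on the minus strand and has 49 exons in the transcript with the longest coding sequence.

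The NOT module was uneven. Cnot2, which pairs with CNOT3 on the C-terminal part of the scaffold, had a mean count of 2969.59 and a level of 172, at percentile 93.2 (chr10:116485161-116581511, minus strand). Cnot3, its partner, had a mean count of 497 and a level of 16.4, at percentile 58.6 (chr7:3645268-3661109, plus strand). The level of Cnot3 was 20.2 by the longest transcript and 16.9 by the coding length. By coding length Cnot3 was the lowest of the 10 genes, in place of Cnot6l.

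With merged exons the genes of the N-terminal module lay close to each other. Cnot10 had a mean count of 2144.57 and a level of 76.4, at percentile 84.6 (chr9:114585878-114640184, minus strand). Cnot11 had a mean count of 1064.98 and a level of 71.6, at percentile 83.7 (chr1:39534992-39546889, plus strand). By the longest transcript the levels were 77.5 for Cnot10 and 53.8 for Cnot11, and by coding length 73.8 and 54.0. The order stayed the same on all 3 scales, but the gap was wider on these than with merged exons.

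Of the CAF1-type nucleases, Cnot8 was the higher. Its mean count was 1614.12 and its level 144, at percentile 91.8 (chr11:58104153-58118594, plus strand). Cnot7 had a mean count of 1063.07 and a level of 43.1, at percentile 75.7 (chr8:40492540-40515847, minus strand). By coding length the levels were 141 for Cnot8 and 95.5 for Cnot7. The level of Cnot8 was 3.35 times that of Cnot7 with merged exons, 2.81 times with the longest transcripts and 1.48 times with coding lengths. Merged exons are 5821 bases in Cnot7 and 2636 in Cnot8, while the coding sequences are 855 and 876 bases. Which part of the untranslated sequence these cells transcribe, and which part of it was counted, was not tested. The mean counts themselves, undivided by length, gave 1.52 times.

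Of the CCR4-type nucleases, Cnot6 was close to Cnot7 and Cnot6l was lower. Cnot6 had a mean count of 1206.65 and a level of 43.0, at percentile 75.7 (chr11:49671503-49712723, minus strand). Cnot6l had a mean count of 570 and a level of 13.03, at percentile 54.8, the lowest of the 10 genes (chr5:96070333-96164171, minus strand). Cnot6 was 3.30 times as high as Cnot6l with merged exons, 3.16 times with the longest transcripts and 2.11 times with coding lengths, and the mean counts gave 2.12 times. Summed over each pair, the CAF1-type genes had 3.34 times the level of the CCR4-type genes, between 2.90 and 3.76 times with the other lengths, and 1.51 times the mean counts undivided by length. With merged exons this ratio rests on Cnot8 and Cnot6l, since Cnot7 and Cnot6 were nearly equal, at 43.06 and 43.04. Cnot7 was above Cnot6 by the longest transcript, at 48.1 against 37.0, and by coding length, at 95.5 against 55.4. By undivided mean count Cnot6 was above Cnot7.

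Cnot4 encodes a RING-type ubiquitin ligase that in mammals is not a stable part of the complex. Its mean count was 663 and its level 16.0, at percentile 58.1 (chr6:35022065-35133724, minus strand), and by the longest transcript and the coding length it was 29.6 and 23.9. Cnot9, the adaptor subunit that binds recruiting proteins such as those of microRNA silencing, had a mean count of 2447.15 and a level of 151, at percentile 92.2 (chr1:74506058-74530842, plus strand). Only Cnot1 and Cnot2 of the 10 genes lay above it with merged exons, and by coding length Cnot9, at 209, was above Cnot1. By the longest transcript Cnot8, at 135, also lay above Cnot9, at 132.

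By level with merged exons the order was Cnot1, Cnot2, Cnot8, Cnot10, Cnot11, Cnot7, Cnot6, Cnot3, Cnot4 and Cnot6l. The closest neighbours were Cnot7 and Cnot6, at 43.06 and 43.04, followed by Cnot3 and Cnot4, at 16.4 and 16.0. By coding length Cnot7, at 95.5, passed Cnot10 and Cnot11 and was well apart from Cnot6, at 55.4, and the closest neighbours were Cnot8 and Cnot2, at 141.5 and 140.7. The spread over libraries is unknown, and neither these nor the wider gaps can be called larger than it. Among genes whose mean count reached 100, a limit that all 10 pass, Cnot1 was at percentile 91.1 and Cnot2 at percentile 88.0. Under that limit Cnot6l was at percentile 21.2, Cnot4 at percentile 26.7 and Cnot3 at percentile 27.5, so these 3 genes were in the lower part of the genes that reach that count.

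**Figure D2:**
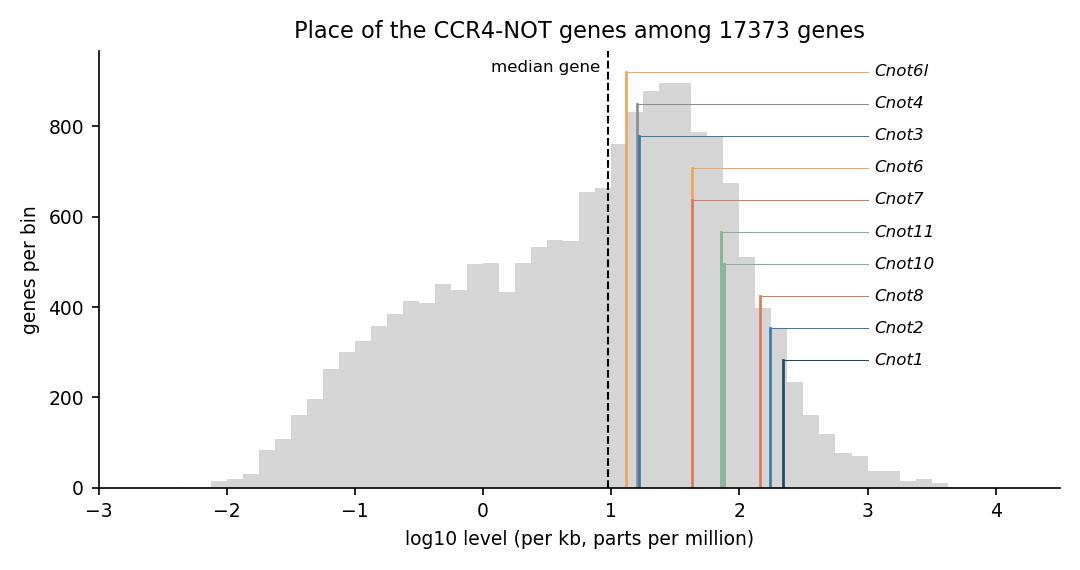
Histogram of the log10 level of 17373 genes in grey, in genes per bin, with coloured lines at the levels of the 10 CCR4-NOT genes and a dashed line at the median gene, 9.41; the heights of the coloured lines carry no value. All 10 genes lie to the right of the dashed line, with Cnot6l nearest to it at 13.03 and Cnot1 farthest at 218.

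Genes of the same pathway were read on the same scale, with merged exons. The medians of these groups with the other lengths were not computed, and the gaps between groups may depend on the length. Of the genes listed as deadenylases outside the complex, 8 had a row and their median level was 26.1, against 57.3 for the complex. The highest was Toe1, a nuclear deadenylase of small RNAs, at 97.4, and the lowest was Angel1, at 8.32. There were 7 of these 8 genes above the median gene and 0 at the 90th percentile.

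The genes of proteins that recruit CCR4-NOT to mRNAs ranged more widely in level than the complex, over 22 genes against 10. Of 24 listed, 22 had a value here, and Btg4 and Nanos2 were not analysed here. Their median was 26.7, 19 were above the median gene and 4 were at or above the 90th percentile. Ythdf2, the m6A reader that contacts CNOT1, was the highest of them at 215, beside 218 for Cnot1. This closeness depends on the length used, since by the longest transcript Ythdf2 was at 177 and Cnot1 at 333, and by coding length Ythdf2 was the higher, at 184 against 171. Samd4, a reader of stem-loops in target mRNAs, was the lowest at 1.83.

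The genes of the decapping and decay factors that act after deadenylation were all present, 7 of 7, with a median of 41.9. They ran from Xrn1, the 5′ to 3′ exonuclease, at 10.3, to Ddx6, the RNA helicase that binds CNOT1, at 121. The genes of the cytoplasmic poly(A)-binding proteins, which coat the tail that the complex removes, were among the highest of the pathway. Pabpc1 was at 392 and Pabpc4 at 254. Pabpc1l, a form known from oocytes, was at 0.131, with a mean count of 1.52. Mettl3, the gene whose protein carries the degron, had a level of 31.8, at percentile 70.2, lower than 7 of the 10 CCR4-NOT genes. By the longest transcript it was at 55.7, lower than 4 of the 10. The degron acts on protein, and this RNA level over treated and untreated cells is no check of its removal.

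**Figure D3:**
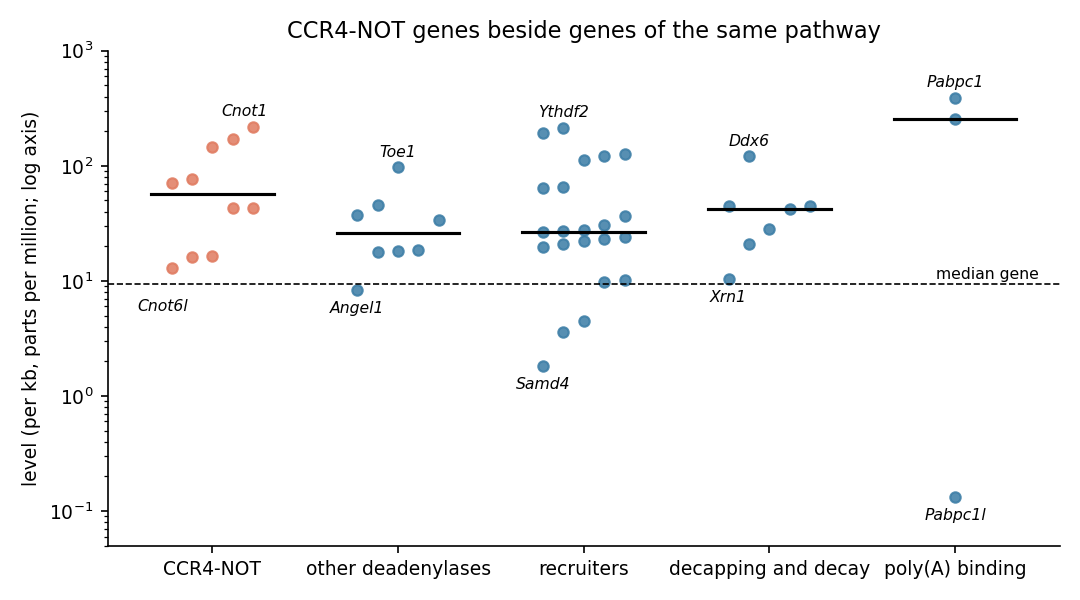
Level of each gene, per kilobase and in parts of 1000000 on a log axis, for the 10 CCR4-NOT genes in red and 4 groups of genes of the same pathway in blue; each point is 1 gene, bars are medians and the dashed line is the median gene. The highest and lowest gene of each group are named, and the CCR4-NOT genes, with a median of 57.3, all lie above the dashed line.

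The identity of the cells was read from marker genes. All 8 stem cell markers were above the median gene, from Klf4 at 109 to Dppa5a at 3806, with a median of 716. Of 8 fibroblast markers, 3 were above the median gene, with a median of 4.92, from Postn at 0.0208 to Sparc at 190. Of 4 germ layer markers with a row, the highest was T at 10.3 and the lowest Gata6 at 0.291. Fibroblasts of the feeder layer also express CCR4-NOT genes, and their part in the levels was not tested.

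Reads that another gene could claim bear on how firmly each level is held. For Cnot2, Cnot4, Cnot6, Cnot6l, Cnot10 and Cnot11, 0 of the 81-base stretches of the transcript with the longest coding sequence occurred in an annotated transcript of another gene on either strand. That transcript is only a part of the merged exons behind a level, 3170 of 10313 bases in Cnot6l and 3473 of 9779 in Cnot4. The rest of the merged exons, and matches in the genome outside annotated transcripts, were not searched. The merged exons of Cnot2 do overlap those of 5330438D12Rik, a transcript gene on the opposite strand, by 232 bases. For Cnot3 it was 675 of 2742 stretches (24.6%), the largest share in the complex. Of these, 386 occurred in a processed pseudogene, Gm9207, on chromosome 3, and 305 in Leng1, which lies on the opposite strand and shares 433 exon bases with the end of Cnot3. Leng1 had a mean count of 185 beside the 497 of Cnot3. Reads that matched more than 1 place were discarded by the authors, and the sources do not settle whether counting used strand: the study states default settings of the counting tool, while the name of the deposited table holds the word reverse. The part of the pseudogene and of Leng1 in the level of Cnot3 was not tested.

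For Cnot1, 714 of 8310 stretches (8.59%) were shared, 661 of them with the processed pseudogene Gm6158 on chromosome 14 and 53 with an antisense gene at its 5′ end. For Cnot8 the share was 6.88%, with the processed pseudogene Gm18860 on chromosome 8. For Cnot7 it was 4.03%, with Zdhhc2 on the opposite strand, whose mean count was 116. For Cnot9 it was 54 of 3188 stretches (1.69%), with Usp37 on the opposite strand, which shares 134 exon bases with it and had a mean count of 2570.36 beside the 2447.15 of Cnot9. Cnot6 holds within an intron, on its own strand, a processed pseudogene, Gm12191, with a mean count of 4239.53, more than the 1206.65 of Cnot6. The exons of Gm12191 and Cnot6 share 0 bases, and the level of Cnot6 does not include its reads where exons alone were counted. Cnot1 holds 2 snoRNA genes and the microRNA gene Mir7073 in its introns, and Mir3572 lies over 86 exon bases of Cnot3.

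Features of the transcripts that the choice of the genes did not use were then compared with those of all genes. In the transcript with the longest coding sequence, GC content was low in most of the complex, with a median of 45.4% against 50.5% over all genes, and 2 of the 10 genes were above that value. Cnot6 (39.8%), Cnot6l (39.6%) and Cnot7 (40.7%) were at percentiles 3.89, 3.64 and 6.06, and Cnot3 (57.3%) stood at percentile 85.3. Of the 3 lowest genes by level, Cnot3 thus had the highest GC content of the complex and Cnot6l the lowest. The exon density was above the median gene in 7 of the 10, with a median of 3.62 exons per kilobase against 3.33, and it was highest in Cnot10, at 7.01.

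The sequence after the last sense codon was longer than the median gene in 8 of the 10, with a median of 1023 bases against 877. Cnot6 had 3693 bases there, at percentile 92.6, against 1671 coding bases, and Cnot3 had 286 bases, the fewest. The longest internal exon of Cnot11, of 784 bases, was at percentile 91.2, the highest of the complex. The median over all genes was 205 bases, with genes that have no internal exon kept as the shortest. Cnot2, Cnot7 and Cnot10 were below that median, at percentiles 39.6, 44.9 and 49.2, and the other members lay between these and Cnot11. Long internal exons and the region around the stop codon are known as the places where m6A is mostly found in mRNA.

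**Figure D4:**
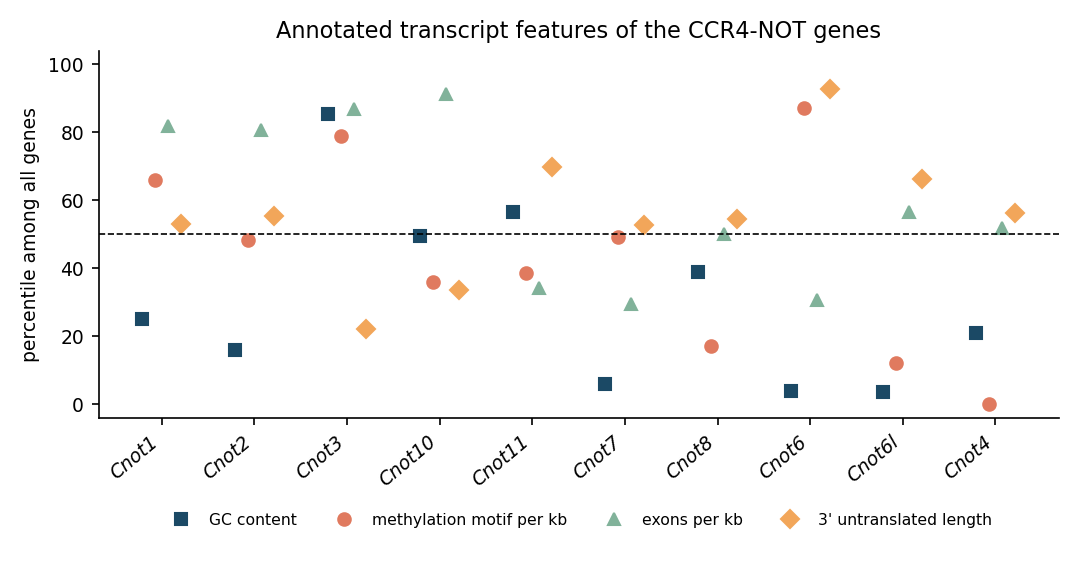
Percentile among all genes of 4 annotated features of each CCR4-NOT gene: GC content, density of the m6A-type 5-base motif, exons per kilobase and length of the sequence after the coding sequence. The motif is counted in the longest transcript, and the other features are read in the transcript with the longest coding sequence. Points below the dashed line at the 50th percentile are lower than the median gene; GC content is below it in 8 of 10 genes and the length after the coding sequence above it in 8 of 10.

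The m6A writer favours the bases GGACT among the sites it can modify, and this motif was counted on the transcript strand, together with the shorter GGAC that it contains. GGACT is common: 91.7% of all genes hold it in their longest transcript, at a median of 1.04 per kilobase. The 10 genes had a median of 0.938 per kilobase, with 3 of them above the median gene. Cnot6 held 11 copies, 1.92 per kilobase, at percentile 87.2. Cnot3 held 7 copies (1.62 per kilobase) and Cnot1 held 11 (1.31 per kilobase). Cnot6l, the paralogue of Cnot6, held 3 copies, 0.350 per kilobase, and Cnot4 held 0. GGAC, found in 99.4% of genes, had a median of 3.82 per kilobase in the complex and 4.05 over all genes.

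The place of the motif was read in the transcript with the longest coding sequence, which differs from the longest transcript for some members. There the 10 genes held 38 copies of GGACT, of which 4 were before the coding sequence, 23 within it and 11 after it. The 60.5% of copies within coding sequence stood beside 58.0% of the bases. Cnot6 had 8 of its 11 copies after the coding sequence, where 64.4% of its bases lie. All 11 copies of Cnot1 lay within its coding sequence, which holds 85.0% of its bases. In this transcript Cnot3 and Cnot6l held 0 copies and Cnot4 held 5, against 7, 3 and 0 in their longest transcripts. The motif content of these 3 genes therefore depends on which transcript the cells use, which a count per gene does not show. A motif in a transcript is not a methylated site, and no methylation was measured in these libraries.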

How the data were processed

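Total RNA from 8 mouse ES cell libraries was depleted of rRNA, made into stranded libraries and sequenced as paired reads of 81 bases. According to the study's methods, rRNA reads were removed, reads were aligned with STAR to an N-masked mm10 genome, unique alignments were kept, PCR duplicates were removed with Picard, and genes and transposable element subfamilies were counted and compared with TEtranscripts at default settings. The study took its mm10 gene annotation from the UCSC genome browser, and which of the gene sets there was used for counting is not given in the sources used here. The deposited table has 1 row per feature: the authors' mean signal over libraries, in counts scaled by library size factors, and the columns of their own treated against untreated comparison (log2 fold change, its standard error, test statistic, p-value and adjusted p-value). Only the mean signal was used. The columns of the comparison were left out, values per library were not analysed here, and so no test, error or depth per library is given.

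Mean counts were divided by merged exon length from GENCODE vM21 (GRCm38) and scaled to 1000000 over 17373 genes, 98.7% of the 17597 in the table. Of these, 16660 matched by symbol and 713 by an older symbol; 31 further rows repeated a gene and 193 had no match. Stretches of 81 bases were taken from the transcript of each subunit gene with the longest coding sequence. They were searched on both strands of all annotated transcripts. The steps were run in Python 3.11.15 with pandas 2.3.3, numpy 2.4.6, Biopython 1.88 and matplotlib 3.10.9. The scaling was tested on counts simulated with known lengths, which checks the calculation and not the choice of length. The members and gene lists were chosen with earlier results of these data known. Genes named are the 10 members, Cnot9, Mettl3 and the highest and lowest of each list, or every gene of lists of up to 4, and genes that overlap or share sequence with a member. Alternatives were other lengths, protein-coding genes only, minimum mean counts of 10 and 100, counts without length, transposable elements in the total and another transcript for motifs.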

Additional observations from a re-analysis of the deposited data

How the results depend on the processing

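Values without replicates can only be compared by their size. The ratio of Cnot7 to Cnot8, 0.298 with merged exons, was 0.356 with the longest transcripts, 0.675 with coding lengths and 0.659 with counts undivided by length. The ratio of Cnot6l to Cnot6, 0.303, was 0.474 with coding lengths and 0.472 with undivided counts. The CAF1-type pair over the CCR4-type pair, 3.34, was 3.76, 2.90 and 1.51 in turn. The share of the 10 genes in the counts of all genes, 0.190%, was 0.170% with transposable elements in the total. None of the ratios given here crossed 1 under these alternatives, but other comparisons changed direction. By coding length Cnot3 was lowest in place of Cnot6l, Cnot7 was above Cnot10 and Cnot11, and Cnot9 and Ythdf2 were above Cnot1. By undivided mean count Cnot6 was above Cnot7. With a minimum mean count of 10, Cnot3, Cnot4 and Cnot6l passed below the median gene, to percentiles 46.5, 46.0 and 41.7. Levels of the 11 subunit genes, Cnot9 included, moved by 0.751 to 1.85 times with the longest transcripts and by 0.754 to 2.22 times with coding lengths, over 1.5 times in 2 genes each, and by 1.05 times with protein-coding genes only. No paired analysis was possible because the values used are pooled over all libraries; for the same reason the comparison of treated with untreated cells and the leaving out of single replicates, both planned for values per library, were not run. What precision the depth of each library gives is unknown.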
